A study of Mus musculus with 6 samples.

Results

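The cells described here are 4T1ch9, a clone derived from 4T1 mammary carcinoma cells of BALB/c mice, after lentiviral delivery of a non-targeting short hairpin RNA (shRNA). They were read on 2 of the 6 arrays of the study, 1 from cells given 6 µl of virus and 1 from cells given 18 µl. No array of the Stc1 shRNA enters the calls or the main levels below. Those arrays enter only the range of probes detected over the 6 arrays, and the processing alternatives that use all 6 arrays or the deposited values. Both sets of non-targeting cells carried an integrated shRNA vector and had been under puromycin for 5 to 6 days. Untransduced 4T1ch9 cells are therefore not represented. The labels do not say whether the arrays came from separate cultures, each volume has 1 array, and the values are therefore given as a description with no test. A gene was called on when at least 1 of its probes had a detection p-value, its rank against the negative control probes of the array, under 0.05 on both arrays. Of 19057 named genes, 8546 were on (44.8%) and 10511 were not.

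The 4T1 line is widely used as a transplantable model of aggressive breast cancer because it grows in immunocompetent BALB/c mice and spreads from the mammary fat pad to lung, liver, bone and brain. Its cells are of mammary epithelial origin, where luminal cells line the ducts and make milk and basal or myoepithelial cells surround them and contract. In carcinomas, epithelial cells can take on mesenchymal features, among them the intermediate filament protein vimentin and loss of the junction protein E-cadherin.

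A level below is the normalised log2 bead intensity of the brightest probe that was on for a gene, given for the 6 µl array and then for the 18 µl array. For a gene not on, it is that of its brightest probe. Bead intensity depends on the probe as well as on the transcript, so an order of levels between genes is an order of probe brightness and not of RNA molecules. The levels of genes on ran from 4.7 to 14.39 with a median of 7.80, and genes not on had a median of 4.38, where the background lies. Among the 1078 olfactory receptor genes on the array, which nasal sensory neurons use, 12 were on (1.11%), none with a level above 5.25. There were 788 genes on at or below that level, and a level that low is called dim below. In the other direction, the ribosomal protein genes Rps23 and Rpl6, the chaperone gene Canx and the cap-binding factor gene Eif4e, all used by every dividing cell, were not on. A gene not on therefore had no probe above background on both arrays, and its absence from the cells does not follow. Some genes called not on were above background on 1 array alone. Genes with 1 probe were on less often (33.0% of 9885) than genes with 3 or more probes (66.9% of 4119), and the part played by the number of probes was not tested. Each list's share is to be set against the 44.8% of all named genes, and a share near it says nothing particular of the list.

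**Figure D1:**
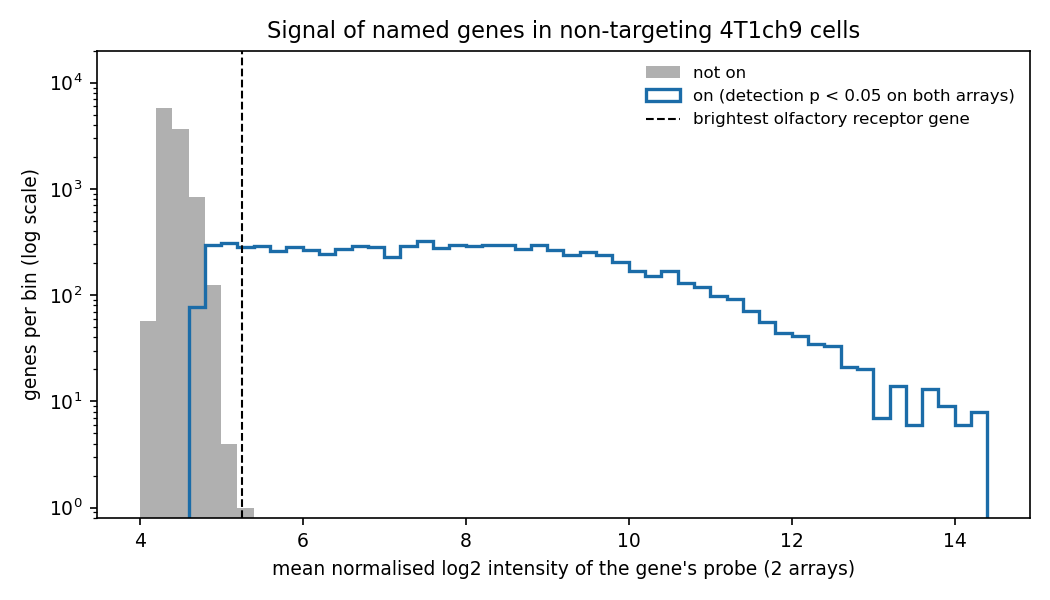
Number of named genes per bin of 0.2 log2 units (y axis, log scale) against the mean normalised log2 intensity of the gene's probe over the 2 non-targeting arrays (x axis). Genes not on (grey) form a narrow peak around 4.38, and genes on (blue outline) spread from 4.7 to 14.39, with the dashed line at the brightest olfactory receptor gene, 5.25.

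The 30 brightest genes on were ribosomal protein genes in 11 cases, and the others were of mixed function. Eef1a1, the elongation factor that brings aminoacyl-tRNA to the ribosome, stood first at 14.37 and 14.41. Fth1, the ferritin heavy chain that stores iron, followed at 14.46 and 14.31, and the ribosomal protein genes Rps2, Rplp1, Rps29 and Rpl41 were also among the 10 brightest. Slpi, which encodes a secreted inhibitor of neutrophil elastase and other serine proteases, was the fifth brightest gene at 14.28 and 14.21. A related secreted protein of the whey acidic protein family, Wfdc2, was among the 30 brightest at 13.65 and 13.81. The peptidyl-prolyl isomerase gene Ppia was at 14.17 and 14.27, and Mif, a cytokine that acts on macrophages, was at 14.09 and 14.2. Mt1, a metallothionein that binds zinc and copper, had 14.11 and 14.13, while its relative Mt2 had 6.55 and 7.05. Apart from Mt2, these genes differed by less than 0.2 between the arrays and were among the 30 brightest.

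The 30 brightest genes also included Lgals1, galectin 1, which binds galactosides at the cell surface (14.01 and 13.9), and Anxa2, a calcium-dependent membrane-binding protein (13.71 and 13.64). Atp5g3 (13.85 and 14.01) and Atp5b (13.93 and 13.93), subunits of the mitochondrial ATP synthase, were there too, as were Tuba1b (13.86 and 13.94) and Tubb5 (13.77 and 13.79), which encode the tubulins of microtubules. Ybx1, a protein that binds mRNA and DNA, was at 13.91 and 13.85. The replication-dependent histone H2A genes H2ac24, H2ac10, H2ac20 and H2ac7 lay between 13.79 and 14.14 in mean level. Histone H2A genes are near-identical in sequence, and which member each probe read is uncertain; 13 of 16 members were on. The 10 brightest genes held 3.35% and 3.28% of the summed raw signal of all genes on, and the 100 brightest held 18.9% on each array, so no small set of genes dominated the signal.

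Ribosomal protein genes were nearly all on and bright. Of 58 measured, 51 were on (87.9%), with a median level of 13.22 beside 7.80 over all genes on, and 27 were among the 100 brightest genes. Those not on were Rps20, Rps23, Rpl17, Rpl6, Rpsa, and the copies Rpl3l and Rpl39l, which are known from muscle and testis. Translation factors and chaperones were on for 29 of 34. They included Npm1, the nucleolar chaperone of ribosome assembly (13.5 and 13.6), Eef1g, a subunit of the elongation factor complex (13.39 and 13.53), Eif4a1, the helicase of translation initiation (13.31 and 13.35), and Hspa8, the constitutive heat shock protein of the cytosol (13.21 and 13.19). Within the elongation factor pair, Eef1a1 was on and Eef1a2, the form of muscle and neurons, was not.

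Luminal epithelial identity was partial. Keratins 8 and 18, the filament pair of simple epithelia, were bright, whereas E-cadherin and several other junction genes were not on. Krt8 had 12.51 and 12.54 and was brighter than 98.6% of the genes on. Krt18 had 11.05 and 11.15, and Krt7, another keratin of simple epithelia, had 10.97 and 10.61. Spint1, the membrane inhibitor of matriptase and hepsin, was at 11.71 and 11.57. Of the junction genes, the tight junction gene Cldn3 was on at 8.57 and 9.08 and Tjp1, the scaffold ZO-1, at 8.67 and 8.6. Pkp3, a desmosomal plakophilin, was lower at 6.48 and 6.7, and the splicing regulator Esrp2 (5.49 and 5.25) and the epithelial transcription factor Elf3 (5.3 and 5.07, dim) were near background. In all, 9 of 28 luminal keratin and junction genes were on (32.1%, below the 44.8% of all genes).

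Those not on included defining members of the epithelial class. Cdh1, which encodes E-cadherin, had 2 probes and neither was on. The brighter had 4.32 and 5.12, with a detection p-value of 0.543 at 6 µl and 0.00641 at 18 µl, so it was above background on the 18 µl array only. Epcam, a surface adhesion molecule of epithelia, had 4.24 and 4.63, and Krt19, another keratin of luminal cells, had 4.32 and 4.38. The tight junction genes Cldn4, Cldn7 and Ocln, the junctional plakoglobin gene Jup, the protease gene St14, and the epithelial regulators Esrp1, Grhl2, Ovol1 and Ehf were also not on. Like Cdh1, Cldn4 (4.31 and 4.74) and the junction gene Dsg2 (4.53 and 4.85) were above background on the 18 µl array only. Of the 49 keratin genes of the mouse on the array, 5 were on, and outside the luminal list Krt10, a keratin of differentiated epidermis, was on at 7.97 and 8.28, and Krt80 was dim at 4.92 and 5.19. This family count was made after the values were seen.

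The promoters of a keratin gene that was on and a milk gene that was not are shown to compare their start sites. Both are the 150 bases before the RefSeq transcription start in GRCm38.p6, written 5′ to 3′ on the strand of the gene, and capitals mark each CpG dinucleotide. Krt8 lies at chr15:102004343-102004492 on the minus strand, and Csn2, the beta-casein gene, at chr5:87699426-87699575 on the minus strand.
Krt8: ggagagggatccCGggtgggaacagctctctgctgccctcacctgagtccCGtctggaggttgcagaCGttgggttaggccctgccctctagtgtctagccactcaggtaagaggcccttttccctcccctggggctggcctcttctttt
Csn2: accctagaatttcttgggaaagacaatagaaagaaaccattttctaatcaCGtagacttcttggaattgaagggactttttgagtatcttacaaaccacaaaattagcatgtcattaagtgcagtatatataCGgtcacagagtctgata
The Krt8 window holds 3 CpG dinucleotides and that of Csn2 holds 2. Over the full 300 bases, from 250 before to 50 after the start, Krt8 had a GC content of 58% with 6 CpG dinucleotides, and Csn2 had 38.7% with 2.

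Basal and myoepithelial markers were mostly not on. Of 19 measured, 4 were on (21.1%). Itgb4, the integrin subunit of hemidesmosomes, was at 10.13 and 9.76, and its partner Itga6 was at 7.9 and 7.78. Mylk, the myosin light chain kinase, was at 7.98 and 8.04, and Col17a1, a hemidesmosomal collagen, was dim at 5.22 and 5.0. The defining basal genes Krt5, Krt14, Krt15, Krt17, Trp63 and Acta2 (smooth muscle actin) were not on, and neither was Oxtr, the oxytocin receptor through which myoepithelial cells contract. Without the 18 µl array the number on was 7. Krt5 (4.89 and 4.19), Acta2 (4.92 and 4.66) and Krt6b (4.83 and 4.36) were above background on the 6 µl array only.

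Mesenchymal genes were on for 11 of 20 (55%, against 44.8% of all genes). Vim, vimentin, was at 12.78 and 12.96, and Axl, a receptor tyrosine kinase often linked to the mesenchymal state, at 12.83 and 12.79, brighter than 99.15% and 99.04% of the genes on. Each was on with 1 of 2 probes. The transcription factor gene Tcf4 had 11.36 and 11.31, on with 1 of its 3 probes. Sparc, a matrix glycoprotein, had 9.86 and 10.38, and Fn1, fibronectin, had 8.99 and 8.9. Among transcription factors that repress epithelial genes, Zeb2 (8.93 and 8.76), Twist1 (8.23 and 8.36), Snai1 (7.5 and 7.49) and Foxc2 (7.17 and 7.32) were on, whereas Zeb1, Snai2, Twist2 and Prrx1 were not. N-cadherin (Cdh2), cadherin 11 (Cdh11) and Thy1 were not on either, and desmin (Des) was on at the edge of background at 4.73 and 4.71. The arrays thus held bright keratin 8 and bright vimentin in the same RNA. Whether single cells carried both cannot be told from RNA pooled over cells.

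**Figure D2:**
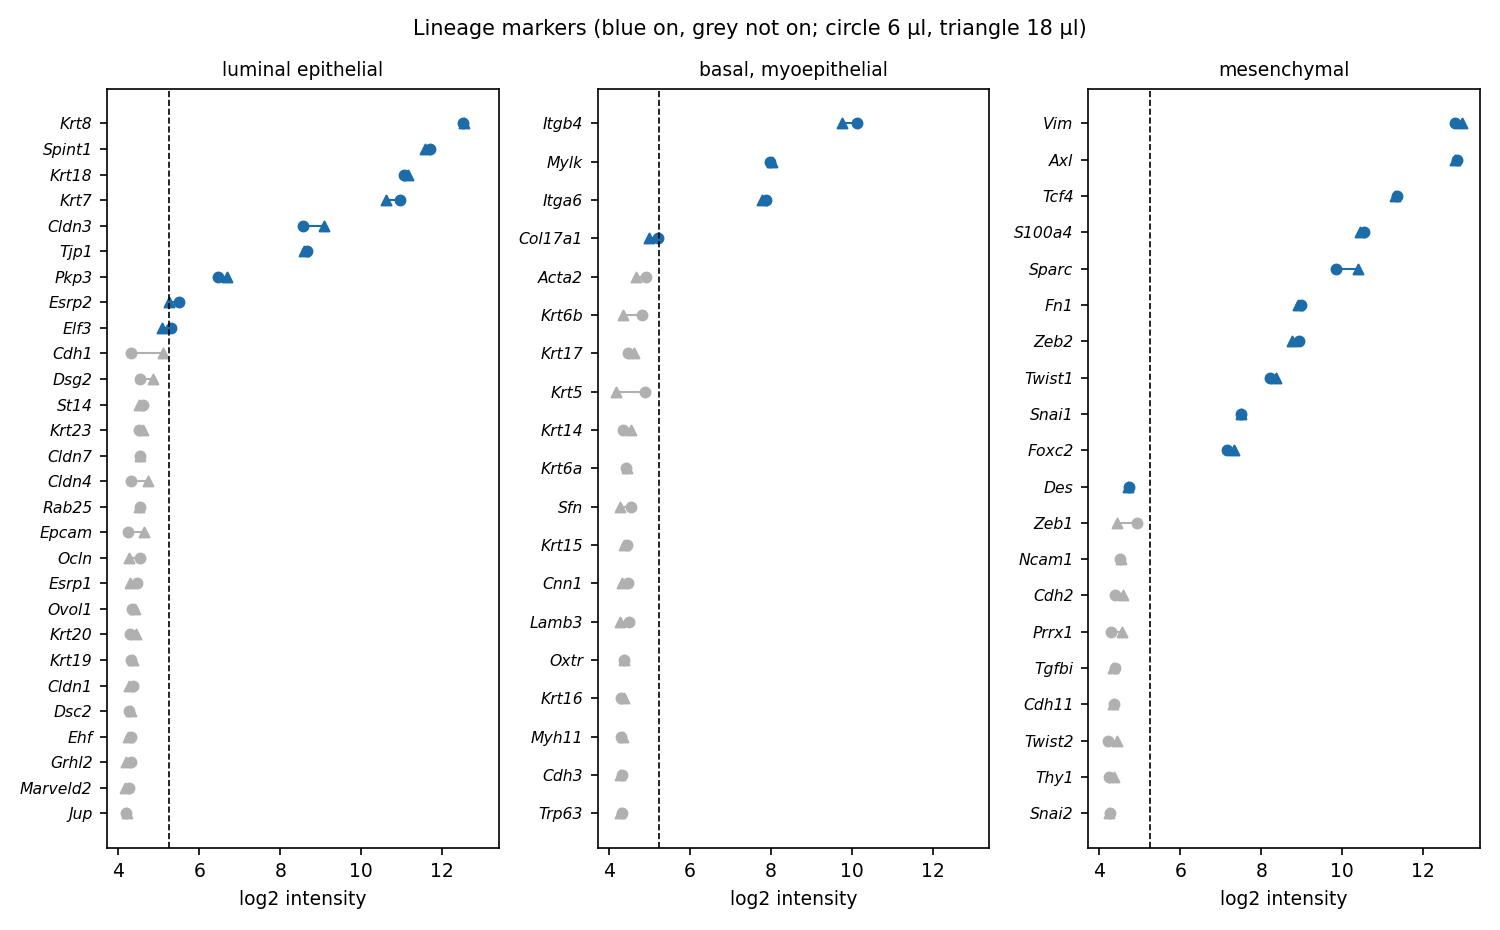
Normalised log2 intensity (x axis) of every measured luminal, basal and mesenchymal marker, with a circle for the 6 µl array and a triangle for the 18 µl array, blue when on and grey when not. The dashed line is the brightest olfactory receptor gene, 5.25; bright members stand in the luminal panel (Krt8, Spint1, Krt18, Krt7) and the mesenchymal panel (Vim, Axl, Tcf4), and most basal markers lie at background.

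Genes of milk secretion were on in 5 of 15 cases. Mfge8, the milk fat globule protein that bridges dying cells to phagocytes, was the brightest at 12.46 and 12.37. Xdh, xanthine oxidoreductase, was at 8.85 and 8.29, Lcn2, a siderophore-binding lipocalin, at 8.09 and 8.41, and Plin2, which coats lipid droplets, at 7.9 and 7.75. Of the caseins only Csn3 was on, at 5.49 and 6.18 and with 2 of 3 probes. The other caseins measured (Csn1s1, Csn1s2a, Csn1s2b and Csn2), Wap, Lalba, Glycam1 and Muc1 were not on.

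Mammary transcription factors were on for 14 of 24. Cebpb, which is needed for alveolar development, had 12.31 and 12.37, and Sox9, a factor of mammary progenitors, had 10.99 and 10.99. Gata3, the factor that maintains luminal cells, had 10.76 and 10.68. Tfap2a (9.7 and 9.6), Klf5 (9.56 and 9.32) and Sox4 (9.35 and 9.35) were also on. The hormone-sensing luminal factor Foxa1, the alveolar factor Elf5 and the neural crest factor Sox10 were not, and the pluripotency genes Pou5f1, Sox2 and Nanog were not on.

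Hormone receptors were on for 9 of 17, at a median level of 6.27 against 7.80 for all genes on. Ppard, a fatty acid sensor, was the brightest at 9.72 and 9.6, followed by Ghr, the growth hormone receptor, at 8.92 and 9.2. Vdr, the vitamin D receptor, had 6.31 and 6.22, and Nr3c1, the glucocorticoid receptor, was dim at 4.96 and 5.22. Esr1, the oestrogen receptor alpha, was dim, on with 1 of 4 probes at 4.85 and 4.76, with detection p-values of 0.0192 and 0.0342, which is within the range of olfactory receptor genes. Esr2 and Pgr, the progesterone receptor, were not on. With the olfactory receptor level as a floor, an alternative chosen after seeing the data, 5 receptors were on and Esr1 and Nr3c1 were not among them.

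Receptor tyrosine kinases were on for 14 of 28 (50%), a share near that of all genes. After Axl, the brightest were Pdgfra, the alpha receptor for platelet-derived growth factor (9.8 and 9.55), Ephb4, a receptor for ephrin B2 (9.26 and 9.18), Flt1, a receptor for vascular endothelial growth factor (8.74 and 8.91), and Igf1r, the receptor for insulin-like growth factor 1 (8.57 and 8.53). In the ERBB family, Erbb2 was on at 6.67 and 6.74 and Egfr, with 2 of 6 probes on, at 5.33 and 5.32, whereas Erbb3 and Erbb4 were not on. Erbb3 was above background on the 6 µl array only, with 4.72 and 4.27. The receptors Met, Kit, Ret, Fgfr1, Fgfr3 and Fgfr4 were not on, and Fgfr2 was dim at 4.99 and 4.9.

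Growth factor genes were on for 13 of 28 (46.4%), also near the share of all genes, and vascular and platelet-derived factors were among the brightest. Grn, progranulin, was at 11.31 and 11.11, Vegfb at 10.73 and 10.73 and Pdgfa, a ligand of the receptor above, at 9.98 and 10.41. Angpt2, which destabilises vessels, had 9.77 and 9.82, and Vegfc, the lymphatic vessel factor, had 9.22 and 8.96. The main vascular growth factor Vegfa had 9.07 and 8.88, and Hbegf, a ligand of the EGF receptor, had 7.67 and 7.75. Of the other EGF receptor ligands measured, Egf, Tgfa, Btc and Ereg were not on and Epgn was dim. Tgfa was above background at the larger virus volume only (4.64 and 5.25, detection p-values 0.0705 and 0.00214). Areg, a further ligand of this receptor, was not among the genes measured. Hgf, Igf1 and Igf2 were not on.

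The TGF-beta pathway drives mesenchymal change in carcinoma cells and restrains growth of normal epithelium, and 22 of 32 genes of the TGF-beta, activin and BMP list were on (68.8%), at a median of 7.8 that equals that of all genes on. Tgfbr2, the ligand-binding receptor, had 11.94 and 12.21, and Tgfbr1, the kinase it recruits, had 11.51 and 11.37. The effector Smad3 had 10.99 and 10.79, and Bmp1, a protease that matures collagens, had 11.29 and 11.22. Among ligands, Tgfb1 (6.26 and 6.77) and Tgfb3 (7.29 and 7.15) were on, whereas Tgfb2 and the BMP antagonists Nog and Grem1 were not. The receptors Acvr1b and Bmpr1b were not on, and Acvr2a (5.5 and 4.86) was dim.

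In the Wnt, Notch and Hedgehog list 21 of 42 members were on. Ctnnb1, beta-catenin, which links cadherins to actin and carries the Wnt signal, was on with all 4 probes at 12.49 and 12.6. Wnt7b was the bright Wnt ligand at 9.28 and 9.55, one of 2 Wnt genes on among 19 on the array, the other being the dim Wnt5b. Their receptors Fzd6 (9.37 and 9.54) and Fzd7 (8.38 and 8.48) were on. Of targets that report Wnt signalling, Axin2, Lef1 and Lgr5 were not on. Notch1 (8.04 and 7.89) and Notch2 (5.43 and 5.58) were on, Notch4 was dim at 4.76 and 5.23 and Notch3 was not on, Gli3 (8.98 and 9.02) was on, and the Hedgehog ligands Shh and Ihh and the target Gli1 were not.

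Cell division genes were among the most complete lists. Of 33 measured, 29 were on (87.9%), with a median level of 10.2 against 7.80. Cenpa, the centromeric histone, had 12.83 and 12.91. The replicative helicase subunits Mcm4 and Mcm5 had 12.39 and 12.36 and 11.51 and 11.57, and Mcm2, Mcm3, Mcm6 and Mcm7 were on as well. The mitotic kinase Aurka had 11.37 and 11.62, Cdc20, an activator of the anaphase complex, 11.09 and 11.2, Cdk1, the mitotic cyclin-dependent kinase, 10.99 and 11.12, and the topoisomerase Top2a 10.87 and 10.96. Only Ccnb2, Kif20a, Cenpe and Bub1 were not on. The Mcm5 promoter is shown because CCAAT boxes were frequent in this list: the 150 bases before the start, chr8:75109359-75109508 on the plus strand of GRCm38.p6 from RefSeq, hold 2, in capitals.
Mcm5: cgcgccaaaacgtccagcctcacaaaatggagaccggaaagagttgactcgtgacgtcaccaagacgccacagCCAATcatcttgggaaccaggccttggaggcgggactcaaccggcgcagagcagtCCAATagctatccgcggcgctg
The letters CCAAT, searched on both strands over 300 bases, were present in 15 of 21 cell division genes on with a promoter window (71.4%), against 39.1% of all 12325 promoters and 39.8% of those of genes on.

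Among oncogenes and tumour suppressors 23 of 34 were on. Ccnd1, cyclin D1, which drives entry into the cell cycle, was on with all 3 probes at 12.82 and 12.99. Its kinase Cdk4 had 10.63 and 10.72, whereas Cdk6 was dim at 5.02 and 5.15, and Ccnd3 (9.12 and 9.18) was on while Ccnd2 was not. Nras, a small GTPase of growth signalling, was on with 3 of 3 probes at 11.36 and 11.55. Myc had 6.01 and 5.87, with 1 of 2 probes on, and Mycn was not on. Cdkn2a and Cdkn2b, inhibitors of CDK4 and CDK6 whose loss is frequent in tumours, were not on, and Cdkn2a had 4.46 and 4.34 with 0 of 3 probes on. The inhibitors Cdkn1a (6.36 and 6.66) and Cdkn1b (7.36 and 7.13) were on. Akt1 was not on either, although it is used widely.

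Apoptosis regulators were on for 27 of 30 (90%). Those named by brightness were Cycs, cytochrome c (10.9 and 10.93), the inhibitor survivin (Birc5, 10.77 and 10.84), and the BCL2 family protector Mcl1 (10.81 and 10.78). The killers Bcl2l11 (9.27 and 9.67) and Casp8 (8.96 and 8.73) were on beside them. Genes of inflammatory death were on in part, with Casp1 at 9.6 and 9.26 and Mlkl at 9.2 and 9.13, and Ripk3, the kinase that activates the MLKL protein, not on.

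Matrix metalloproteinases and their inhibitors were on for 9 of 23. Mmp3, stromelysin 1, was on with all 3 probes at 12.87 and 12.62, brighter than 98.96% of the genes on. Mmp14, a membrane-bound collagenase, had 10.55 and 10.54, Mmp24 had 8.58 and 8.47, and the stromelysin 2 gene Mmp10 had 6.71 and 6.64. Collagenase 3 (Mmp13) had 5.89 and 6.26, and gelatinase B (Mmp9) was dim at 4.93 and 4.76. Gelatinase A (Mmp2), matrilysin (Mmp7) and the macrophage and neutrophil enzymes Mmp12 and Mmp8 were not on. Of the tissue inhibitors, Timp2 (11.87 and 11.67) and Timp1 (9.65 and 9.84) were on, and Timp3 and Timp4 were not. The Mmp3 promoter is shown for the motif of AP-1, the factor formed by FOS and JUN proteins. The 150 bases before its start, chr9:7445672-7445821 on the plus strand of GRCm38.p6 from RefSeq, hold TGACTCA once, written here as its reverse complement in capitals.
Mmp3: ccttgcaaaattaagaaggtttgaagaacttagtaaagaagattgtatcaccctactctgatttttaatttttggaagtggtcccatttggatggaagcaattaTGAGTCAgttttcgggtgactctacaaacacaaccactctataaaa
TGACTCA, on either strand in 300 bases, was found in 3 of 8 metalloproteinase and TIMP genes on and in 4.38% of all promoters.

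The plasminogen system, cathepsins and their inhibitors were on for 12 of 25 genes. Cathepsin B (Ctsb) was the brightest at 12.85 and 12.57, and its inhibitors Cstb (12.49 and 12.51) and Cst3 (11.36 and 11.48) were bright too. Plau, urokinase, which activates plasminogen, had 9.81 and 10.23, and its surface receptor Plaur had 8.8 and 9.0. Plat, the tissue-type activator, was on at 5.98 and 6.3, while plasminogen itself (Plg), a liver product, was not. Ctse, an aspartic protease, was on at 8.91 and 8.99. Ctsk, the cathepsin of osteoclasts, Ctss, that of antigen-presenting cells, and the mammary serpin Serpinb5 were not on.

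Chemokines, which attract leukocytes, were mostly dim or not on. Of 33, 10 were on, with a median level of 5.99. Cxcl1, a neutrophil attractant, stood apart at 8.6 and 8.61, and the next were Cx3cl1 (7.07 and 6.94), Ccl25 (6.61 and 6.78) and Ccl2, a monocyte attractant (6.86 and 6.27). Ccl5 (5.13 and 5.69), Ccl9 (5.25 and 5.53) and a dim Ccl7 (5.36 and 5.03) were nearer to background. Cxcl2, Cxcl3, Cxcl9, Cxcl10, Cxcl12 and Ccl20 were not on. No chemokine receptor was on of 21 measured, Cxcr4 and Ccr7 included, although 1 was on without the 6 µl array and 2 without the 18 µl array.

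Cytokines, colony-stimulating factors and related mediators were on for 12 of 36 genes. After Mif, the brightest was Tslp, an epithelial cytokine that acts on dendritic cells, at 10.58 and 10.29. Csf1, the macrophage growth factor, had 9.1 and 8.87, and Il23a, a subunit of interleukin 23, had 7.2 and 7.56. Ptgs2, cyclooxygenase 2, had 6.7 and 6.54, and Il11 had 6.23 and 6.32. Csf3, the granulocyte growth factor, was above background at 6 µl only (4.93 and 4.42, detection p-values 0.016 and 0.309). Csf2, Il6, Il1a, Il1b, Tnf, Lif and the alarmin Il33 were not on. Receptors for such signals were on for 17 of 31, led by the Toll-like receptors Tlr4, the sensor of bacterial lipopolysaccharide (9.05 and 8.87), and Tlr2 (7.97 and 7.94), followed by Il6ra (7.2 and 7.72) and Il13ra1 (7.25 and 7.62). Il6st, the shared chain that signals for interleukin 6, was not on. It was above background at 6 µl only (5.02 and 4.58, detection p-values 0.011 and 0.103). Osmr was on, with fewer than 50% of its probes.

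Genes of the NF-kB pathway, the main carrier of such inflammatory signals, were on for 17 of 19. Rela, its transactivating subunit, had 9.91 and 9.58, and the inhibitor Nfkbia had 7.84 and 7.55. Nfkb2 and Rel were not on. Feedback members, the deubiquitinase Tnfaip3 (7.88 and 8.22) and Traf1 (8.68 and 8.64), were on, as were the targets Tnfaip2 (10.99 and 10.84) and the leukocyte adhesion molecule Vcam1 (9.81 and 9.86, 1 of 4 probes), with Icam1 dim at 4.94 and 5.12.

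Antigen presentation by MHC class I was on for 17 of 21 genes (81%). B2m, its invariant light chain, had 13.46 and 13.55 and was brighter than 99.6% of the genes on. The heavy chain genes H2-D1 and H2-K1 had 11.18 and 11.14 and 8.92 and 8.87, and their sequences are alike enough that a probe may read both. The chaperone Pdia3 had 12.08 and 12.13. The peptide transporter subunit Tap2 was on at 6.37 and 6.35, while Tap1 was not, being above background on the 6 µl array only. The immunoproteasome subunits Psmb8 (6.59 and 6.46) and Psmb10 (8.1 and 8.25) were on. Psmb9 was not, being above background on the 18 µl array only. MHC class II, the system of professional antigen-presenting cells, had 1 of 8 genes on, H2-DMa (5.66 and 5.48), and neither the chains H2-Aa, H2-Ab1 and H2-Eb1, nor Cd74, nor the activator Ciita. Without the 18 µl array 2 were on, with H2-Ab1 (4.74 and 4.52).

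Genes that restrain immune attack were on for 11 of 25 (44%, near the 44.8% of all genes). Besides the galectins, the bright members were Cd47, which signals to macrophages not to engulf a cell (11.36 and 11.3), and Nt5e, the CD73 enzyme that makes adenosine (10.62 and 10.65). Cd276, a B7 family molecule, had 8.73 and 8.91, and the DNAM-1 and TIGIT ligands Nectin2 and Pvr had 7.8 and 8.01 and 7.11 and 7.67. Cd274, which encodes PD-L1, was not on with its 1 probe, at 4.32 and 4.57 and detection p-values of 0.545 and 0.104. Pdcd1lg2, Ido1, Arg1, Fasl and Entpd1 were not on, and Arg2 was on at 6.49 and 6.03.

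Interferon-stimulated genes and nucleic acid sensors were on for 22 of 33, at a median of 6.07. The antiviral membrane proteins Ifitm3 (11.53 and 11.41), Ifitm1 (10.71 and 10.53) and Ifitm2 (10.57 and 10.57) led, and they too are close relatives. The transcription factor Irf1 had 9.92 and 9.69, on with 4 of 5 probes, and the cytosolic DNA sensor Cgas had 8.99 and 9.04, with its partner Sting1 at 5.53 and 5.9. Genes induced by type I interferon were divided. Ifi27 (10.01 and 10.05), Oasl2 (6.45 and 6.5), Oasl1, Ddx58 (5.82 and 6.12), Irf9, Ifit2 (5.78 and 5.77), Ifi35 and Bst2 (5.39 and 5.27) were on and Isg15 was dim at 5.46 and 4.9, whereas Ifit1, Ifit3, Mx1, Mx2, Rsad2, Usp18, Oas1a and Irf7 were not on.

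**Figure D3:**
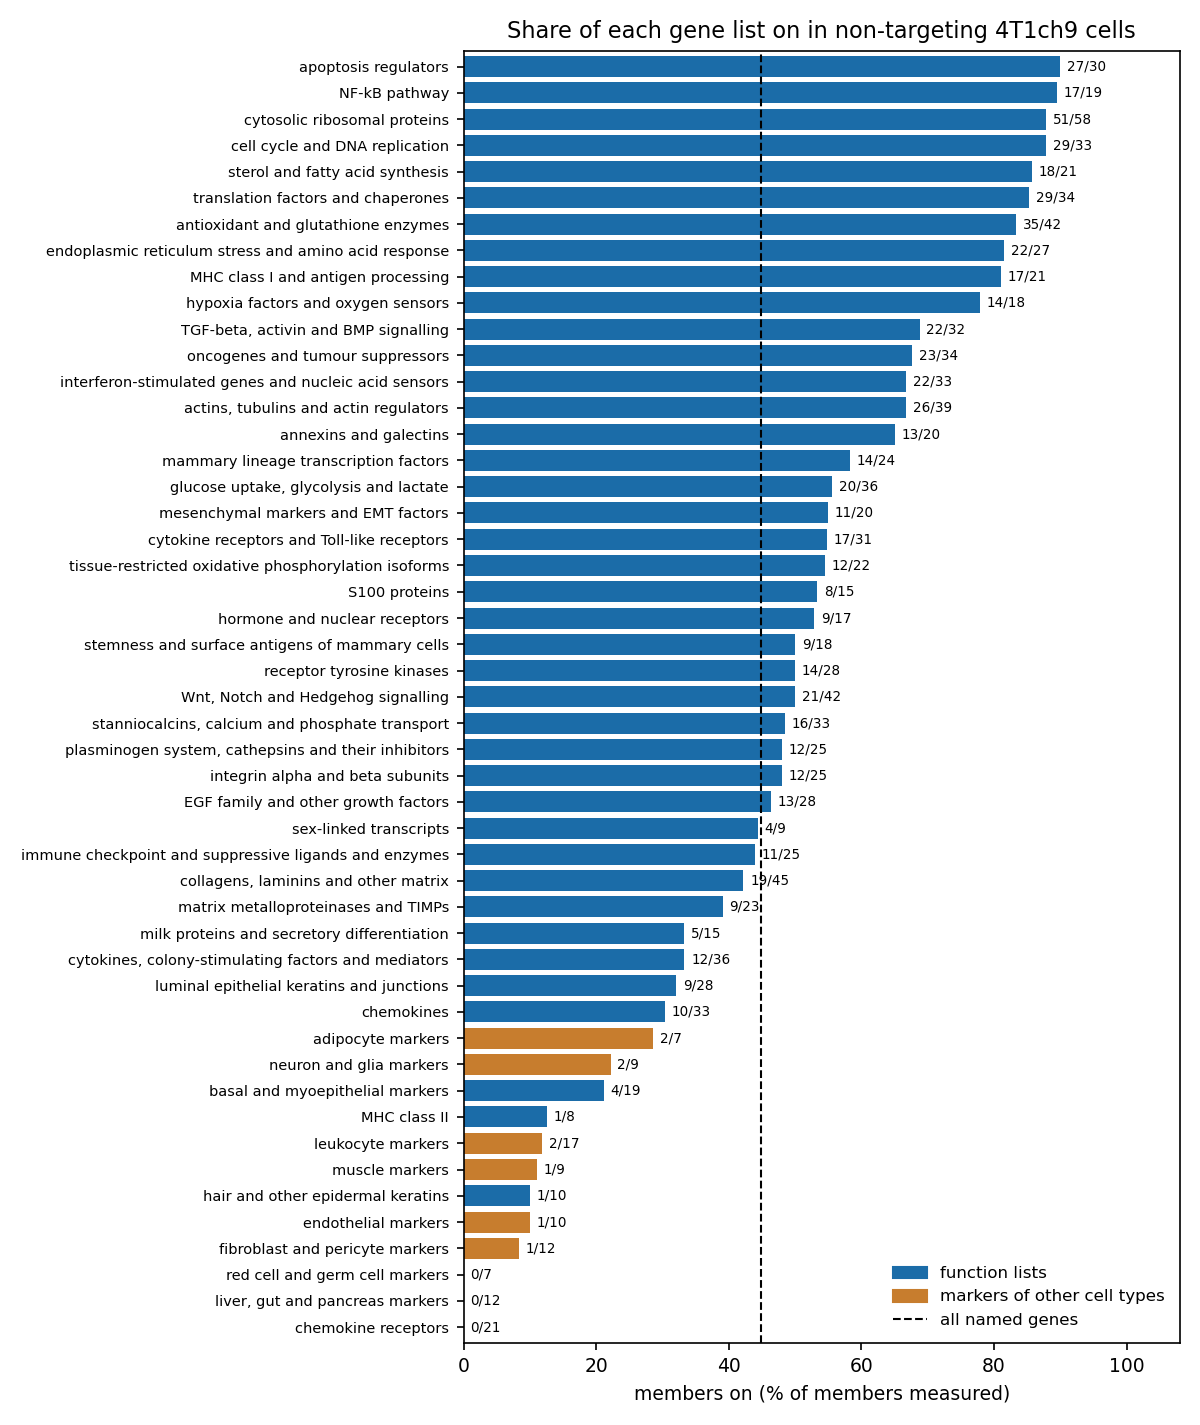
Share of measured members on (x axis, percent) for each of the 49 gene lists, with counts on of measured beside each bar, blue for function lists and orange for markers of other cell types. The dashed line is the 44.8% of all named genes; apoptosis, NF-kB, ribosomal and cell division lists lie far above it, and chemokine receptors, MHC class II and the other cell type lists below.

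Integrin subunits were on for 12 of 25 (48%), a share near the 44.8% of all named genes, and Itga1, Itga7 and Itga8 among them were dim. Itga3, a laminin-binding chain, was the brightest at 11.95 and 11.98, and Itga6 and Itgb4 were on as given above. Itgb1, the common partner of most alpha chains, was at 5.91 and 6.22, on with both its probes. Itgb7 (9.23 and 8.78) and Itgb5 (8.48 and 7.88) were on with Itgav (7.56 and 7.56), while Itgb3, Itgb6, Itgb8, Itga2 and Itga4 were not. In the matrix list 19 of 45 were on. Basement membrane collagens were bright, with Col18a1 at 11.68 and 11.63, Col4a1 at 10.99 and 10.97 and Col4a2 at 10.1 and 10.18, beside Lamc1, a laminin chain (10.43 and 10.29), and Col5a1 (10.74 and 10.83). The fibrillar collagens Col1a1, Col1a2 and Col3a1 and the proteoglycans Dcn, Lum and Bgn, products of fibroblasts, were not on, and neither were Tnc, Postn and Lox.

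The list of stemness genes and surface antigens of mammary cells had 9 of 18 on. The tetraspanins Cd63 (12.47 and 12.36), Cd81 (11.65 and 11.74), Cd151 (11.21 and 11.35) and Cd9 (10.56 and 10.62) were bright. Cd44, the hyaluronan receptor, had 10.28 and 10.41, on with 3 of 9 probes, and Cd24a, a mucin-like surface protein, had 6.37 and 5.84. Aldh3a1, an aldehyde dehydrogenase, had 11.08 and 10.2, and the ALDH1 genes Aldh1a1, Aldh1a2 and Aldh1a3 were not on. The drug exporter Abcb1b was on at 9.53 and 9.61, and Abcb1a, Abcg2 and Prom1 were not.

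S100 genes, which encode small calcium-binding proteins, were on for 8 of 15. S100a11 was the brightest at 13.48 and 13.77, followed by S100a10, the partner of annexin A2, at 11.62 and 11.56, and S100a6 at 11.52 and 11.1. S100a4, a protein tied to metastasis of mammary tumours, had 10.55 and 10.44. S100a8, a subunit of calprotectin, had 9.8 and 9.8, and S100a9, with which it pairs, was not on at 4.24 and 4.3. Both promoters are shown for their TATA boxes, in capitals: S100a4 at chr3:90603620-90603769 and S100a8 at chr3:90668921-90669070, each the 150 bases before the start on the plus strand of GRCm38.p6 from RefSeq.
S100a4: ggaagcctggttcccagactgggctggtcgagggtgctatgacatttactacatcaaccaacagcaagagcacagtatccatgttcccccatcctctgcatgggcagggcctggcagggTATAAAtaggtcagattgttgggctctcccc
S100a8: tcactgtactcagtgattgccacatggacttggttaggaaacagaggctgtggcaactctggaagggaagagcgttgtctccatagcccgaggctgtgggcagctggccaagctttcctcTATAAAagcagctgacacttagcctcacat
TATAAA on the strand of the gene, 50 to 15 bases before the start, was present in 2 of 6 S100 genes on with a window and in 3.38% of all promoters, and 0 of the 6 had a CpG-rich promoter.

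Annexins and galectins were on for 13 of 20. Besides Anxa2 and Lgals1, the galectin gene Lgals3 had 13.11 and 12.85, Anxa3 had 12.97 and 12.75 and Anxa5, which binds phosphatidylserine, had 12.69 and 12.68. The gut galectin genes Lgals2 and Lgals4, Lgals7 of stratified epithelium and Anxa8 and Anxa13 were not on.

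Cytoskeletal genes were on for 26 of 39, and within several families some isoforms were on and others not. The cytoplasmic actin gene Actb had 13.13 and 13.19, while the muscle actins Acta1, Acta2, Actc1 and Actg2 were not on. The tropomyosins Tpm1 (12.65 and 12.39) and Tpm4 (12.01 and 12.08) were on and Tpm2 was not. Besides Tubb5, the beta-tubulins Tubb4b (12.5 and 12.46) and Tubb6 (12.2 and 12.2) were on, and the neuronal form Tubb3, Tubb4a and the platelet form Tubb1 were not. The smooth muscle genes Tagln and Myl9 were not on, whereas their relatives Tagln2 (10.87 and 10.68) and Myl6 (11.61 and 11.77) were. Forms known mainly from other tissues were on too, the muscle cofilin Cfl2 at 6.45 and 6.57, the neuronal profilin Pfn2 at 7.36 and 7.46 and the testis tubulin Tuba3a at 6.63 and 6.6.

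In glucose metabolism 20 of 36 genes were on, and isoforms were again on in part. The pyruvate kinase gene Pkm had 13.29 and 13.47, while the liver and red cell form Pklr was not on. Ldha, the lactate dehydrogenase subunit that favours lactate formation, had 12.8 and 12.87, while the heart-type subunit Ldhb had 4.27 and 4.33 and was not on. Gapdh had 12.4 and 12.5, Tpi1 12.31 and 12.53, Pgk1 11.97 and 11.99 and Aldoa 11.46 and 11.3, and the testis copies Gapdhs, Pgk2 and Ldhc were not on. The glucose transporter gene Slc2a1 had 11.1 and 11.05, and Slc2a2, Slc2a3 and Slc2a4 were not on. Other tissue forms were on: the muscle enolase Eno3 at 10.46 and 10.49, the neuronal enolase Eno2 at 7.22 and 7.71, the muscle phosphofructokinase Pfkm at 9.17 and 9.12 and the brain aldolase Aldoc at 7.95 and 8.47. Of hexokinases, Hk1 was on at 6.58 and 6.61 and Hk3 was not. The lactate transporter genes Slc16a1, Slc16a3 and Slc16a7 were not on with the probes present.

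Among respiratory genes with tissue-restricted forms 12 of 22 were on. The general forms Cox4i1 (12.16 and 12.01), Cox6a1 (11.43 and 11.29) and Cox6b1 (11.88 and 11.85) and the adenine nucleotide carrier Slc25a5 (12.85 and 12.92) were bright, and the lung, muscle and testis forms Cox4i2, Cox6a2, Cox6b2 and Cox8b were not on. Slc25a4, the heart and muscle carrier, was on at 5.85 and 6.1, and the heart and muscle form Cox7a1 was dim at 5.25 and 4.92. Ucp1 and Ucp3 were not on, and Ppargc1b (6.76 and 6.87) was on while Ppargc1a was not.

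Antioxidant genes were on for 35 of 42 (83.3%). Prdx1, a peroxiredoxin, had 13.21 and 13.01, Gpx1, a glutathione peroxidase, 11.97 and 12.01, and Gpx4, which protects membrane lipids, 11.51 and 11.57. Of glutathione transferases, Gstm2 had 11.99 and 11.71 and Gstp1 11.29 and 11.29. The cystine transporter Slc7a11 had 8.5 and 8.28 with 2 of 5 probes on. Its partner Slc3a2 had 6.48 and 6.23. The brain metallothionein Mt3 and the epithelial Mt4 were not on.

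Hypoxia factors and oxygen sensors were on for 14 of 18. Egln3, an oxygen-dependent prolyl hydroxylase, was the brightest at 10.47 and 10.73, and Ndrg1, a gene raised by low oxygen, had 9.46 and 9.87. The carbonic anhydrase Car12 had 9.53 and 9.76. The HIF subunits Hif1a (8.35 and 8.11) and Arnt (8.0 and 8.01) were on, whereas Epas1 (HIF-2 alpha), Hif3a and Arnt2 were not.

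Genes of endoplasmic reticulum stress and amino acid supply were on for 22 of 27. The chaperone Hsp90b1 had 12.59 and 12.44, and Hspa5, the chaperone BiP, had 8.79 and 8.63. Psat1, of serine synthesis, had 12.04 and 12.09, Asns, asparagine synthetase, 10.89 and 11.01, and Atf4, the factor that controls both, 11.03 and 10.92. Of the stress sensors, Ern1 (7.7 and 7.47) and a dim Atf6 (5.1 and 4.94) were on, and the kinases Eif2ak3 and Eif2ak4 were not. Sterol and fatty acid synthesis had 18 of 21 genes on, with Acly, which makes cytosolic acetyl-CoA, at 11.94 and 12.19, the desaturase Fads1 at 11.99 and 11.98, Sqle, squalene epoxidase, at 11.15 and 11.36, and Fasn, fatty acid synthase, dim at 4.82 and 5.02.

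Stc1, stanniocalcin 1, the secreted glycoprotein targeted elsewhere in the study, was on in these control cells. Its level was 8.9 and 9.15, brighter than 70.9% of the genes on, and the raw intensity was 481.7 and 635.8 bead units. Of its 2 probes 1 was on. Stc2, its paralogue, had 4.79 and 4.68 with detection p-values of 0.0278 and 0.0577, so it missed the threshold on the 18 µl array. Of the calcium and phosphate transport list 16 of 33 were on, led by Atp2a2, the calcium pump of the endoplasmic reticulum (10.31 and 10.36), and Itpr3, a calcium release channel (9.36 and 9.35). The store-operated channel genes Orai1 (7.12 and 7.31) and Orai3 (7.34 and 7.27) and their sensors Stim1 and Stim2 were on, Orai2 was not. The phosphate importer Slc20a1 (7.25 and 7.12) and exporter Xpr1 (8.35 and 8.41) were on. The kidney and gut transporters Slc34a1, Slc34a2, Trpv5 and Trpv6, and the calcium-sensing receptor Casr, were not on.

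Markers of other cell types were looked for as a check on the label. Of 83 measured in 8 lists, 9 were on (10.8%). Leukocyte markers were on for 2 of 17, Itgb2 (6.47 and 6.48) and Coro1a (6.3 and 6.35), and the pan-leukocyte gene Ptprc was not on at 4.29 and 4.59. Of 10 endothelial markers Egfl7 was on (8.66 and 8.81), and Pecam1, Cdh5 and Kdr were not. Of 12 fibroblast and pericyte markers Pdgfra was on, without the collagens or Dcn. Adipocyte genes gave Pnpla2, a lipase of many tissues (9.01 and 9.05), and a dim Lep (4.94 and 4.76), with Adipoq and Plin1 not on. Of 9 neural markers Mbp (7.35 and 7.5, 1 of 5 probes) and a dim Syn1 (4.81 and 5.19) were on, Des was the only one of 9 muscle markers, and none of the 12 liver, gut and pancreas or 7 red cell and germ cell markers was on. With 1 array left out, 2 endothelial markers were on without the 6 µl array, Kdr (4.4 and 4.76) among them, 2 fibroblast and pericyte markers without the 18 µl array, and 1 liver, gut and pancreas marker (Ttr, 4.31 and 4.87) and 2 red cell and germ cell markers (1 of them Ddx4, 4.59 and 4.82) without the 6 µl array. Without the 6 µl array the leukocyte marker Elane (4.47 and 4.76) and the neural marker Rbfox3 were also on. Averaged over all members of a list, levels were 4.6 at 6 µl and 4.68 at 18 µl for leukocyte markers, beside a background median of 4.38.

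Sex-linked transcripts were also read. Xist, the RNA that coats the inactive X chromosome, was not on with any of 4 probes (4.46 and 4.39). The X-linked genes Eif2s3x (10.41 and 10.6), Ddx3x (10.01 and 10.2) and Kdm6a (8.01 and 8.12) were on. Of the Y-linked genes Uty, Kdm5d and Usp9y were not on, and Eif2s3y was at the threshold with 4.71 and 4.76 and detection p-values of 0.0459 and 0.0342.

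Promoters of genes on held more CpG dinucleotides than those of genes not on, a description given without a test. For 12325 protein-coding genes with a single RefSeq window of 300 bases, a promoter was called CpG-rich when its GC content was at least 50% and its CpG count at least 0.6 of that expected from its C and G content. Of 5528 genes on, 76.7% were CpG-rich, with a median of 22 CpG dinucleotides. Of 6797 genes not on, 26.7% were, with a median of 6, and 49.1% of all windows passed. A match to TATAAA went the other way, at 1.28% of genes on and 5.09% of genes not on. GGGCGG, the core of the SP1 motif, which itself holds a CpG, was found on either strand in 69.5% and 33.4%, against 49.6% of all. CCAAT hardly differed, at 39.8% and 38.5%. Among genes with 1 probe, the CpG-rich shares were 76.1% of those on and 22.8% of those not on. Over 3 equal groups of genes on by level, the share was 70% in the dimmest, 80.3% in the middle and 79.8% in the brightest. Bright genes without a CpG-rich promoter included Krt8, Mmp3, S100a4 and S100a8, shown above, and the Mcm5 window was CpG-rich. Olfactory and vomeronasal receptor genes make up part of the genes not on.

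**Figure D4:**
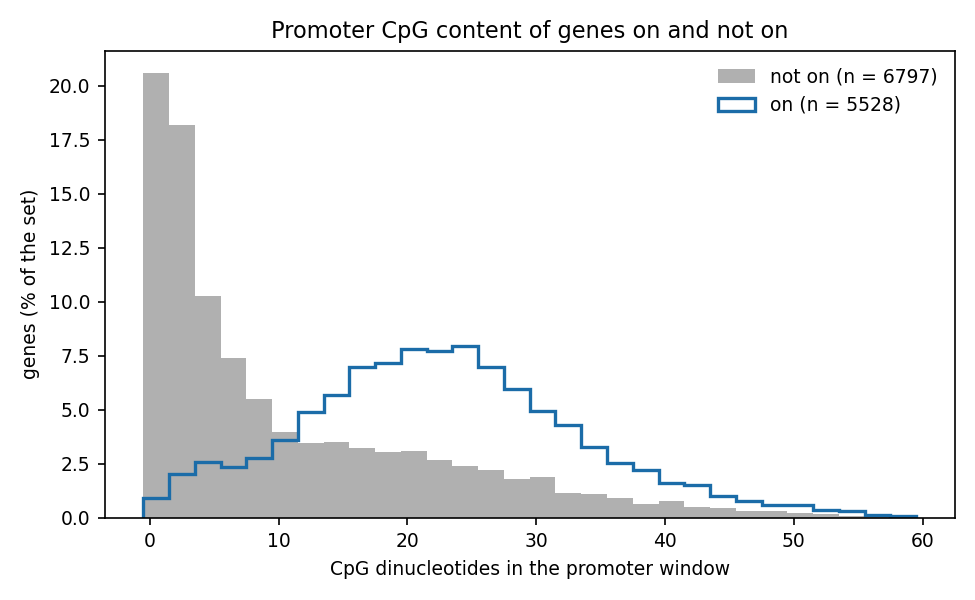
Percent of genes (y axis) by the number of CpG dinucleotides in the 300-base promoter window (x axis), for 6797 genes not on (grey) and 5528 genes on (blue outline). Genes not on pile up near 0 with a median of 6, and genes on centre on a median of 22.

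The arrays gave similar levels for the genes on, which were chosen for detection on both arrays, a choice that favours agreement. The Pearson correlation over the genes on was 0.995 across genes, which are not independent replicates and share the array design. The level at 18 µl minus that at 6 µl had a median of 0.01 and an SD of 0.21 on the log2 scale, 97.2% of the genes on lay within 0.5, and 4 differed by at least 1. Normalisation gave both arrays a shared distribution, so the small median was largely fixed in advance. The largest positive differences were in Lmnb1, a nuclear lamin (8.8 and 9.88), Syne3, a nuclear envelope nesprin (5.69 and 6.67), Rgcc, a regulator of the cell cycle (5.45 and 6.4), Car9, the carbonic anhydrase raised by hypoxia (5.89 and 6.74), and Dus4l, a tRNA dihydrouridine synthase (6.46 and 7.29). The largest negative differences were in Scara5, a ferritin receptor (8.06 and 6.57), the proliferin gene Prl2c2 (7.55 and 6.15), Ifngr2, a chain of the interferon gamma receptor (6.87 and 5.83), Ift57, of ciliary transport (5.87 and 4.87), and the inflammatory caspase gene Casp4 (5.84 and 4.85). Prl2c2 has near-identical relatives, among them Prl2c3, so the gene read is uncertain. With 1 array a volume, a difference between volumes and a difference between these samples cannot be told apart.

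**Figure D5:**
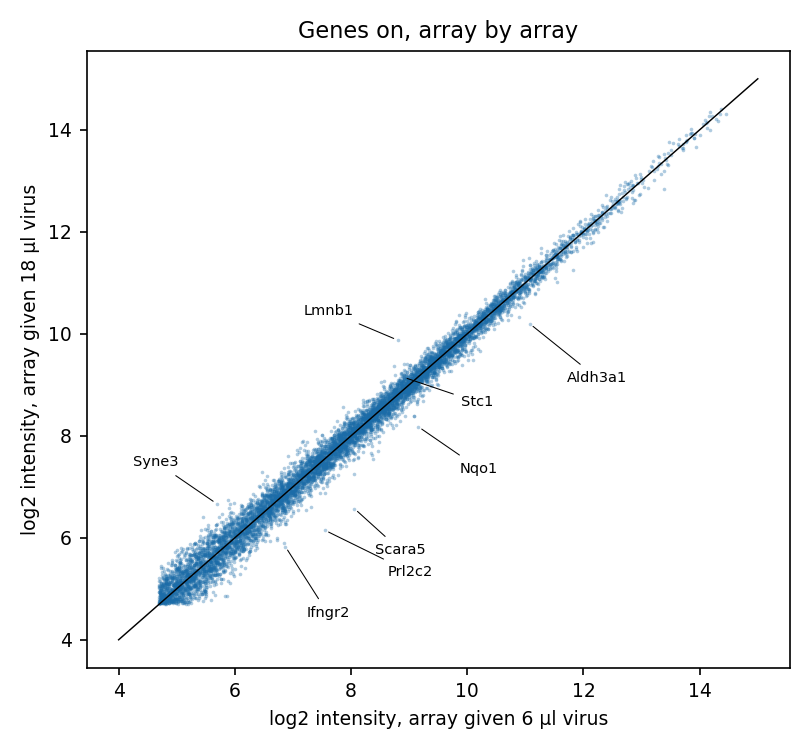
Normalised log2 intensity of each gene on at 18 µl of virus (y axis) against that at 6 µl (x axis), with the line of equal values. Points hug the line, with an SD of the difference of 0.21; Lmnb1 and Syne3 lie above it, Scara5, Prl2c2, Ifngr2, Nqo1 and Aldh3a1 below, and Stc1 near it.

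At the threshold the calls were close. Just inside were Gdap1l1, with detection p-values of 0.0107 and 0.0491, and Fan1, a DNA repair nuclease, with 0.0481 and 0.0363. Just outside were Ankrd61 (0.0118 and 0.0502), Arhgap10 (0.0502 and 0.0363) and Caskin1 (0.0459 and 0.0502). These 5 genes had nearly equal levels, between 4.69 and 5.02, and 590 genes on had their best probe at a detection p-value between 0.01 and 0.05 on the weaker array.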

How the data were processed

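Spin-column total RNA of the cells was converted to biotin-labelled cRNA and read on Illumina bead arrays, per the labels' protocols. The deposited table holds the linear bead intensity of 45281 probes, which the file headers call non-normalised, with a detection p-value beside each deposited intensity. Its steps imply 936 negative controls. The deposited processed log2 values have no stated scale or normalisation. Set against the raw values, both non-targeting columns equalled the log2 of quantile-normalised intensity, with median deviations of 9.6e-05 and 0.00015, and their medians were 5.7769 and 5.7766. The scanner software was not given in the sources used here, and no chip or scan date either.

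The 2 non-targeting arrays were normalised with each other only, using the neqc function of limma 3.58.1 under R 4.3.3 (normexp background from the implied controls, offset 16, quantile normalisation, log2). The offset draws dim values together. Mean raw intensity was 228.3 and 253.1, and 16494 and 16344 probes were detected (16252 to 17507 over the 6 arrays), 15146 on both. The number of arrays limits the precision. The platform annotation listed 34903 probes, 34885 with 1 symbol and 18 with several. Of the probes with 1 symbol, 34807 had a gene identifier in the RefSeq gene table of GRCm38.p6 and took its symbol. The 10378 probes not listed were not used by name, and 2064 probes without 1 symbol were on. The brightest probe on stood for a gene.

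Named genes were the 30 brightest (clone names, and ribosomal proteins beyond 5, left out), up to 8 brightest members on of each list with the members that form a contrast, markers of other cell types that were on, Stc1 and Stc2, 3 genes on each side of the threshold (1 of them is not reported here), and the 5 largest differences each way. The genes described and the 49 lists were chosen with earlier results of these data known. Promoter windows came from RefSeq, and motifs were counted on both strands except TATAAA. The code for calling and ranking was checked on simulated probes. Every simulated gene that was on was clearly detected, so the check does not bear on dim calls. Alternatives covered the detection threshold, the probe rule, normalisation, the deposited values and leaving out either array.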

Additional observations from a re-analysis of the deposited data

How the results depend on the processing

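The number of genes on was 8546, or 7956 at a detection p-value under 0.01, 8122 with Benjamini-Hochberg adjusted detection p-values, 7623 when at least 50% of a gene's probes had to be on, 8540 by the brightest probe alone, and 7758 above the brightest olfactory receptor gene, which was chosen after seeing the data. Reading 1 array alone gave 9095 to 9114. Listed genes on numbered 635, and between 566 and 672 under the same alternatives, where the adjusted detection p-values were added for lists after seeing the data. The 100 brightest genes were shared in full by neqc over all 6 arrays, no background correction, median scaling and the authors' deposited values. These alternatives keep the order of probes within an array, so that overlap was largely fixed in advance and is no check of the ranking. With 1 array alone, 96 and 97 were shared, and with the median over a gene's probes on, 70, so the order among the brightest depends on which probe stands for a gene. Levels were compared for 647 genes, those of the lists and the brightest. The level moved by more than the SD of the arrays for 408 with neqc over 6 arrays and 360 without background correction. It moved for 576 with the authors' values, 216 with the median over probes on and 16 with median scaling. The SD of the difference between arrays was 0.207, or 0.213 with median scaling, 0.161 with the authors' values and 0.158 without background correction. Median scaling moved the median difference from 0.01 to 0.14. Counts for small lists moved by over 1.5 times in up to 5 of 49 lists per alternative. Among markers of other cell types, desmin, leptin and Syn1 were no longer on at a detection p-value under 0.01. No paired analysis was possible because only 1 group was described and no test was run. Signal over background limits the dim calls: 788 genes on were no brighter than an olfactory receptor gene.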

Other observations

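Some bright genes belong to none of the lists, and the genes of this section were chosen after their values were seen. Psg23, a pregnancy-specific glycoprotein otherwise known from trophoblast, had 12.75 and 12.94 with 1 of 2 probes on, while its relative Psg19 was dim at 5.01 and 4.87. Gpnmb, a transmembrane glycoprotein of melanocytes, macrophages and some breast cancers, was on with all 4 probes at 12.95 and 12.73. The gap junction gene Gja1, connexin 43, had 12.69 and 12.81, and Emp1, an epithelial membrane protein, had 12.72 and 12.99. Lmna, which encodes the A-type nuclear lamins, was on with 6 of 6 probes at 13.02 and 13.03, and Odc1, the first enzyme of polyamine synthesis, had 12.97 and 13.13. The focal adhesion genes Zyx (12.66 and 12.75) and Lasp1 (12.61 and 12.84) were also among the 100 brightest genes, as were the mitochondrially encoded CYTB (12.88 and 13.11) and ND1 (12.68 and 12.61) of the respiratory chain.

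Of 38 Hox genes, which give cells their position along the body axis, 5 were on, and all 5 were of the Hoxa cluster. Hoxa5 had 10.48 and 10.66, Hoxa2 had 8.68 and 9.04 with both probes on, and Hoxa7 had 8.05 and 8.03. Hoxa13 (5.12 and 5.01) and Hoxa4 (4.8 and 4.75) were within the range of olfactory receptor genes. Claudins were on for 4 of 24, with Cldn12, which is widely expressed, the brightest at 9.62 and 9.73. Long non-coding RNA genes were on for 67 of 417 (16.1%) against 8429 of 18396 protein-coding genes (45.8%). Neat1, the RNA that organises nuclear paraspeckles, was on at 9.7 and 9.41.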
